A study of Mus musculus with 8 samples.

Results

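Here the 5-methylcytosine (5mC) peaks of lungs from F1 mice whose dams alone had received house dust mite (HDM) were examined. They are the rows of 1 list, in which the MeDIP-seq library of F0-HDM_F1-Saline was searched against that of F0-Saline_F1-Saline, and which of the 2 was searched and which was the control was read from the label of the list. Every row was taken, which gave 88438 peaks of the 329018 peaks in the 6 lists of the series. The members were thus chosen by the comparison and not by their scores.

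The mice were C57Bl/6J, and the lungs came from F1 males. Dams of F0-HDM_F1-Saline were sensitized with 100 µg of HDM protein before mating and received HDM into the trachea through pregnancy and lactation, while dams of F0-Saline_F1-Saline received saline in its place. F1 males of both groups received saline as adults, from 6 weeks of age, with the mock challenges on d14, d18 and d21 and the lung taken after airway testing on d23. In the F1-HDM groups of the series, HDM replaced this saline. For each group and assay, lung DNA from offspring of 3 dams was mixed and sequenced as 1 library, so there was no replicate on either side, and no test between the groups could be made. What the counts below compare is therefore places within 1 list, and the binomial intervals (Clopper-Pearson, 95%) cover counting error over peaks or genes only. A peak is a place where the authors' peak caller gave the coverage a shape score. The list does not say whether 5mC was gained or lost there, and it gives no reads, so the depth behind a peak is unknown. Whole lung holds many cell types, and a mark in few cells cannot be told apart from a weak mark in many.

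5mC is the methyl mark that DNA methyltransferases put mostly on the cytosine of CpG dinucleotides. It is dense over repeats, satellite DNA and the bodies of transcribed genes, is low at most CpG islands with active promoters, and helps to set X inactivation and imprinting. MeDIP-seq enriches DNA fragments that carry 5mC and sequences them, so a fragment with more methylated CpGs is captured more readily. In hMeDIP-seq the fragments are enriched by 5-hydroxymethylcytosine (5hmC), the first product of 5mC oxidation by TET enzymes. Of the other lists, 2 are used to describe the peaks: the MeDIP-seq list of F0-HDM_F1-HDM searched against F0-Saline_F1-HDM, which shares no library with the list described here and is called the F1-HDM list, and the hMeDIP-seq list of the same groups as here.

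The reference sequence at the centre of a peak shows where the peak lies, and not which fragments were captured. Below are 81 bases of GRCm38 (mm10), plus strand, at peaks of 8 genes on which the results turn and whose centre has no exact copy elsewhere, with each CpG in capitals; none touches a UTR. Aida, at chr1:183299361-183299441, held the highest-scored peak of a gene that shares no 12-base word with the satellite-like array of chromosome 9. Sfi1 (chr11:3155850-3155930) and Mroh2a (chr1:88253274-88253354) held the densest runs of peaks with unrepeated centres. Eef2 (chr10:81178082-81178162), Gata3 (chr2:9858418-9858498) and Wnt3a (chr11:59249806-59249886) had peaks in exons. Rasal1 (chr5:120677705-120677785) had a dense run of weak peaks, and Muc5b (chr7:141844381-141844461) had the highest score of the epithelial genes.
Aida: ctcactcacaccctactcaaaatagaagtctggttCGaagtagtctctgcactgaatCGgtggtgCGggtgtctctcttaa
Sfi1: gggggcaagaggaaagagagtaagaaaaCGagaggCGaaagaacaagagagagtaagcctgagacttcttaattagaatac
Mroh2a: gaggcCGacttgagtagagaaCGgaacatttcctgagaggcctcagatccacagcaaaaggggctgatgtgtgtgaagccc
Eef2: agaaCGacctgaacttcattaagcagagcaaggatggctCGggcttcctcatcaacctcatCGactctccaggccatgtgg
Gata3: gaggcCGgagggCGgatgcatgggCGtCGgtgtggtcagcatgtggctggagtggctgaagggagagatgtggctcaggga
Wnt3a: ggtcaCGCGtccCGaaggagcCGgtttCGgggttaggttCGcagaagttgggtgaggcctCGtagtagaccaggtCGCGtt
Rasal1: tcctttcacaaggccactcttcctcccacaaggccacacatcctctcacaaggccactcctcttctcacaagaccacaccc
Muc5b: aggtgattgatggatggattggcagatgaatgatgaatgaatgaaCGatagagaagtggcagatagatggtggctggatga
These 81 bases hold 9 CpGs in Wnt3a, 4 in Gata3, 3 each in Aida and Eef2, 2 each in Sfi1 and Mroh2a, 1 in Muc5b and 0 in Rasal1. The authors' shape score of the peak around them was 26.8 in Aida, 18.2 in Sfi1, 11.7 in Eef2, 5.81 in Mroh2a, 2.51 in Gata3, 2.30 in Rasal1, 2.22 in Wnt3a and 2.10 in Muc5b. The number of CpGs around the centre did not order these 8 peaks by score.

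Most peaks were weak and of nearly the same size. Their length ran from 105 to 563 bp with a median of 390 bp, and 82.7% were 350 to 420 bp long. Their summed length was 35.1 Mb, or 1.33% of the sequenced bases. The shape score ran from 1.282 to 43.97 with a median of 1.52. The authors' p was the upper normal tail of this score and reached up to 0.1, and 56420 peaks (63.8%) had a p above 0.05. A p of 0.001 or less was given to 3162 peaks (3.58% of the list), 1e-06 or less to 1302 (1.47%) and 1e-10 or less to 715 (0.808%). The score was used below only to rank the peaks.

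Strong peaks more often had a sequence repeated in the genome than weak ones, though less so at the highest scores. To see this, the 51-base word at each peak's centre, the length of a read, was searched for exact copies on the assembled chromosomes and both strands. A centre without another exact copy, called unrepeated below, can still have near copies, which were not searched for. Another copy was found for 20.5% of the peaks, against 13.97% of 264768 words read every 10 kb along the genome. Among peaks with a p of 0.001 or less the share was 75.3%, at 1e-06 or less it was 73.5% and at 1e-10 or less 68.7%. It rose from 13.5% of the peaks with a score under 1.4 to 77.4% of those with a score of 5 to 10 and was 56.7% above 10. The share of a peak's bases that the reference marks as repeat had a median of 41.1% in the whole list and 99.1% at a p of 0.001 or less (54.1% there for unrepeated centres). CpG content did not go with the score in this way. Its median was 1.05 per 100 bp both in the whole list and at a p of 0.001 or less, against 0.826 in the genome. By score class the median fell from 1.23 under 1.4 to 0.767 at 2 to 3, and was 1.31 over 10. No CpG at all was found in 9.09% of the peaks, in 12.4% at a p of 0.001 or less and in 17.7% of those with a score over 10. A read from a repeated word cannot be placed at 1 copy by its sequence, and the lists do not say how such reads were treated. What part this had in the scores was not tested.

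**Figure D1:**
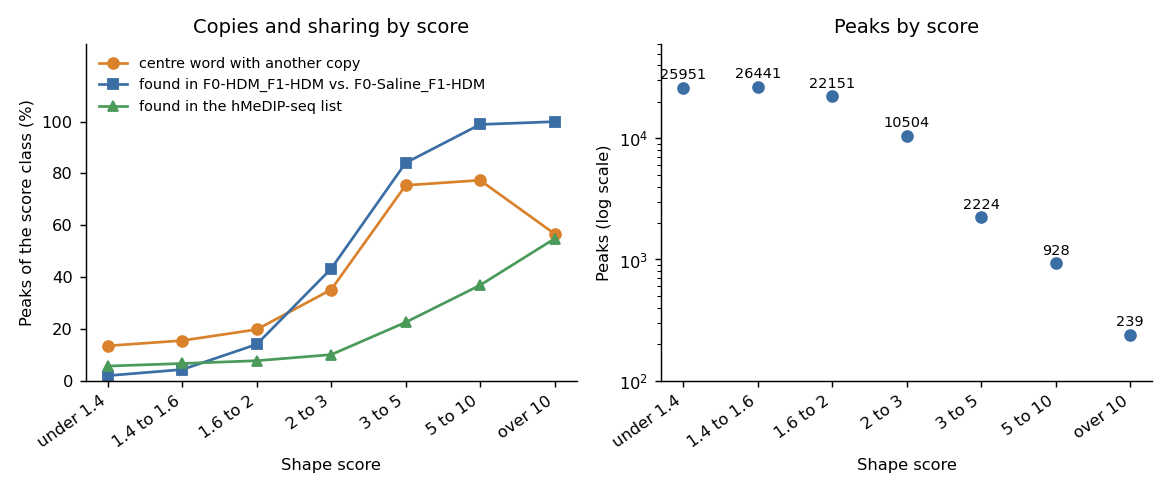
Left, share of the peaks of each score class whose 51-base centre word has another exact copy, or which share at least 1 bp with a peak of the MeDIP-seq list from F1-HDM mice (dams given HDM vs. saline) or of the hMeDIP-seq list of the same groups. Right, number of peaks in each class on a log scale. From a score of 3 upward most peaks had a repeated centre and were found in the F1-HDM list, and 239 peaks scored over 10.

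Many of the strongest peaks sat at chromosome ends or in satellite-like DNA. The 20 highest scores ran from 26.8 to 43.97 and lay on 13 chromosomes. Of these 20 peaks, 10 lay within 10 kb of the end of an assembled chromosome, 10 held no CpG and 4 lay in a gene. The first, at chr9:35305213-35305589 between Gm5614 and 2610105M22Rik by the list, scored 43.97 with 10 CpGs. The next, beyond Tmx3 on chromosome 18, scored 43.3 with 0 CpGs. Those beyond Gm27236 on chromosome 12 (41.9) and Mrgprd on chromosome 7 (41.8) also held 0 CpGs and lay within 10 kb of the last assembled base. Gm10801 on chromosome 2 followed with a score of 40.8 in an exon, and a peak near Gm9075 on chromosome 12 scored 39.2. The X chromosome gave 2 more without a CpG, beside Gm15069 (39.0) and Gm15068 (37.9). Beyond Gm14496 on chromosome 2 the score was 37.9 and beyond Gm21060 on chromosome 19 it was 37.8, both without a CpG. The genes named with a distance are the closest in the list and not overlapped.

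Nearly every chromosome had such a peak at its last base. Within 10 kb of the last assembled base, 20 of 21 chromosomes had a peak and 19 had a peak with a p of 1e-06 or less; 18 of the 38 peaks there held no CpG. Within 10 kb of the first assembled base, 14 of 21 chromosomes had a peak, with 26 of 51 peaks at a p of 1e-06 or less, all on 4 chromosomes. These ends hold only the bases that the assembly reached, and their sequence is not reported here. Satellite-like DNA was found with 12-base words of the tandem array at the start of chromosome 9. At least 20% of a peak's words matched in 83 peaks, of which 33 lay outside the array, on 12 chromosomes. Among the 44 peaks with a score over 20 there were 13 such peaks, among them those in introns of Ank1 (31.1), which encodes ankyrin-1 of the red cell membrane skeleton, Litaf (25.1), which encodes a late endosomal protein, and Mdga2 (21.0), which encodes a cell adhesion protein of synapses. The Mdga2 peak was also the first of the longest peaks, at 563 bp; ties at this length were ordered by p. It was followed by peaks of the same length in an intron of Ranbp3l (score 9.21), which encodes a Ran-binding protein, in an intron of Vmn2r35 (7.97), on the X chromosome near Fundc1 (7.09) and in an intron of Gm14149 (6.62).

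The autosomes had similar numbers of peaks per Mb, and the sex chromosomes had far fewer. Per Mb of sequenced bases there were 29.4 peaks on chromosome 3, the lowest autosome, and 42.3 on chromosome 17, the highest, with 35.8 over all autosomes. The X chromosome had 9.65 and the Y chromosome 12.3. Most peaks of the X (83.0%) and Y (92.8%) had a repeated centre word, against 11.4% on chromosome 11 and 33.0% on chromosome 14, the lowest and highest autosomes. Of genome words, 23.3% on the X and 93.2% on the Y had another copy. With only peaks whose centre word is present once, the autosomes had 23.8 to 35.02 peaks per Mb, while the X had 1.64 (268 peaks) and the Y 0.885 (78 peaks). These densities are still per Mb of all sequenced bases, and a repeated word cannot hold such a peak. On the autosomes only 7.06% to 15.9% of genome words had another copy, so the Y value cannot be set beside the others. Over all autosomes the density was 3.71 times that of the X for all peaks and 17.8 times for these. CpG content of the X, 0.593 per 100 bp, was below that of every autosome (0.762 on chromosome 3 to 0.980 on chromosome 11). The X was also below every autosome for unrepeated centres in lists of other libraries. The F1-HDM list had 0.385 such peaks per Mb on the X against 2.31 to 3.995 on the autosomes, and the hMeDIP-seq list had 1.63 against 5.66 to 11.05. Males carry a single X; what part its copy number and its CpG content had in this was not tested.

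**Figure D2:**
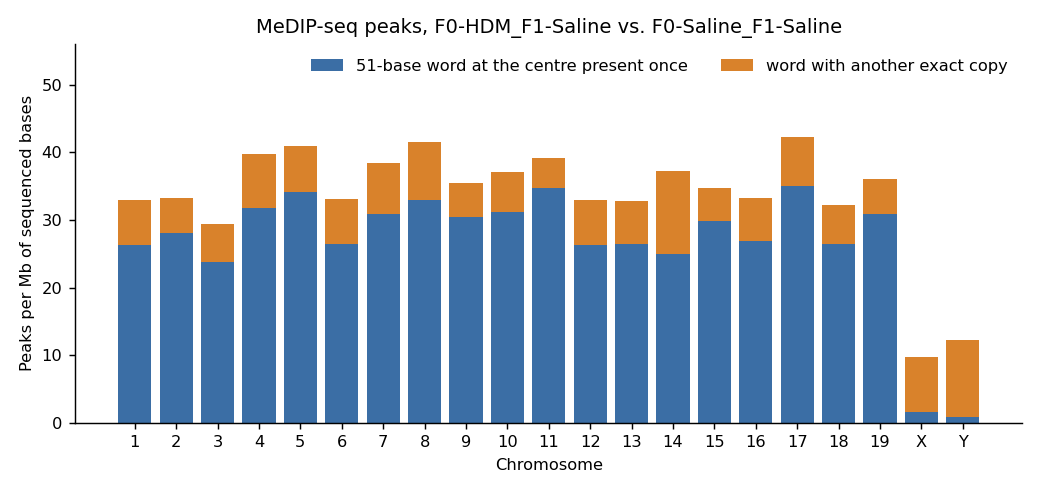
Peaks per Mb of sequenced (non-N) bases on each chromosome, split by whether the 51-base word at the peak's centre is present once or has another exact copy. Autosomes ranged from 29.4 to 42.3, and on X and Y 83.0% and 92.8% of the peaks had a repeated centre.

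Strong peaks were spread in another way. At a p of 0.001 or less the autosomes had 0.566 (chromosome 15) to 1.79 (chromosome 8) peaks per Mb, the X 1.61 and the Y 2.70, so with repeated centres included the X and Y were not below the autosomes. With unrepeated centres the X stayed below, with 0.153 peaks per Mb at a p of 0.001 or less against 0.305 over all autosomes, and 0.0673 against 0.131 at 1e-06 or less. Across the 19 autosomes, peaks per Mb rose with CpG content (Pearson r = 0.71, Spearman rho = 0.74) and with protein-coding genes per Mb (r = 0.55, rho = 0.71). These are descriptions, and chromosomes of 1 pair of libraries share their depth. In windows of 100 kb, 22088 of 27268 held a peak, with a median of 3. The 98 windows with 20 or more peaks held 336 of the 1285 chromosomal peaks with a p of 1e-06 or less (26.1%), and 7 windows held 10 or more such peaks each. The fullest of these held 97 peaks on chromosome 11 over Sfi1, Drg1 and Pisd-ps1. The others lay over Gm26870 on chromosome 9, over Erdr1 on the Y (2 windows), over Gm21887 on the X and between Gm25283 and Rny3 on chromosome 6 (2 adjoining windows with 39 and 38 peaks and no gene overlapped).

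The mitochondrial genome held 18 peaks. Their scores ran from 3.59 to 13.4 with a median of 9.93, 17 had a p of 1e-06 or less, and 16 were also found in the F1-HDM list. The hMeDIP-seq list of the same groups held 0 peaks there.

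Introns and the space between genes took most peaks. By the centre, 46.9% lay in introns, 45.5% between genes and 7.60% in exons, against 4.84% of the genome in exons and 46.0% in genes. Within 2 kb of a transcription start lay 13.96% (13.7 to 14.2), against 11.1% of all bases. This share was 12.6% at a p of 0.001 or less, 14.9% at 1e-06 or less, 17.7% at 1e-10 or less and 25.5% at a score over 10. Runs of strong peaks in Sfi1 and Gm26870 count here, with 41 of 68 and 44 of 50 peaks within 2 kb of a start. Of the peaks with an unrepeated centre, those in genes with a start within 2 kb and the highest scores were in Gm10801, Ank1 and Aida.

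By the gene columns of the list, 37843 peaks (42.8%, 42.5 to 43.1) overlapped 12480 genes. Of the 33697 genes that are named in any list and have a known span, 11860 (35.2%) held a peak. A gene with a peak had a median of 2, 5733 genes had 1, 660 had 10 or more and 11 had 50 or more. Gene length set much of this: 3.05% of genes under 1 kb held a peak, 52.5% of those of 10 to 30 kb and 91.2% of those over 300 kb. Peaks counted by the gene columns were also set against length. Their density went from 5.55 per 100 kb in genes of 1 to 10 kb to 1.98 in those over 300 kb. A value for genes under 1 kb is not set beside these, since many of them are shorter than a peak and overlap alone raises it. By peak centres in the merged spans, an unlike count, the density over all spans was 4.10 (3.34 over the genome). These counts can part in long genes, as in cadherins with 107 listed peaks and 237 centres in their spans. Of protein-coding genes 54.0% held a peak, of lincRNAs 28.7%, of processed pseudogenes 5.12% and of miRNA genes 2.62%.

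**Figure D3:**
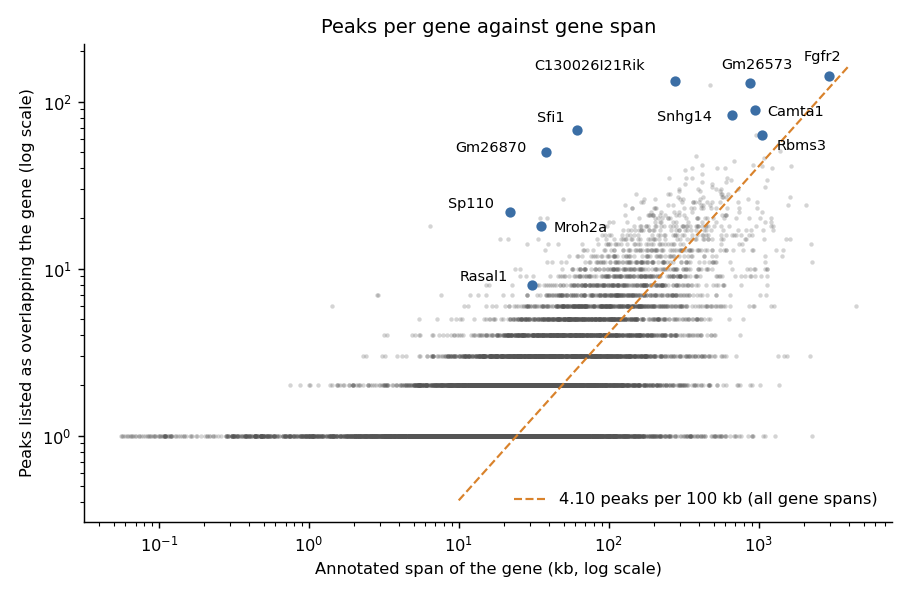
Number of peaks listed as overlapping a gene against the annotated span of the gene, both on log scales, for genes with a peak and a known span (dots). The dashed line is 4.10 peaks per 100 kb, the value over all spans by peak centres, while the dots count listed overlaps. Sfi1 (68 peaks in 61.6 kb) and Gm26870 (50 in 38.03 kb) lie far above the line and Rbms3 (63 in 1057 kb) lies close to it.

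The genes with most peaks were long or repeated, with the exception of Sfi1. Fgfr2, the receptor for FGF ligands of airway branching, was listed with 143 peaks, none with a p of 0.001 or less (highest score 2.84). This number rests on a GENCODE span of 2961 kb, and only 5 of the 143 lie in its RefSeq span of 104 kb, which is 4.79 per 100 kb. C130026I21Rik, near the Sp110 genes on chromosome 1, had 133 peaks, 43 of them with a p of 0.001 or less, and 72.9% with a repeated centre. Its RefSeq span of 41.6 kb, which reaches past the GENCODE span, holds 41 peaks of the list, whichever gene they were listed for. The lincRNAs Gm26573 (129 peaks) and C230088H06Rik (126) lie side by side on chromosome 4, and 73.6% and 56.3% of their peaks had a repeated centre. Camta1, a calmodulin-binding transcription activator, had 89 peaks over 945 kb with a highest score of 2.58. Snhg14, the host transcript of snoRNAs of the imprinted Snrpn-Ube3a region, had 83 peaks, 83.1% with a repeated centre. Rbms3, an RNA-binding protein, and Sox5, a transcription factor of the SoxD group, had 63 each over about 1 Mb, and Gm37240 had 51.

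Sfi1 held 68 peaks in 61.6 kb. It encodes a centrin-binding protein of the centrosome, and lies at chr11:3131850-3193463 on the minus strand. Its scores ran from 1.45 to 18.2 with a median of 6.27. Of the 68 peaks, 51 had a p of 0.001 or less and 41 a p of 1e-06 or less, against 3.58% and 1.47% of the whole list. Unlike most strong peaks, 66 of its 68 had a centre word present once in the assembly. Of the 68, 56 were found in the F1-HDM list and 24 in the hMeDIP-seq list. Gm26870, a lincRNA at the first assembled bases of chromosome 9, held 50 peaks in 38.03 kb. All 50 had a p of 0.001 or less, 46 had a repeated centre (92.0%), and 50 and 45 were found in the F1-HDM list and the hMeDIP-seq list.

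**Figure D4:**
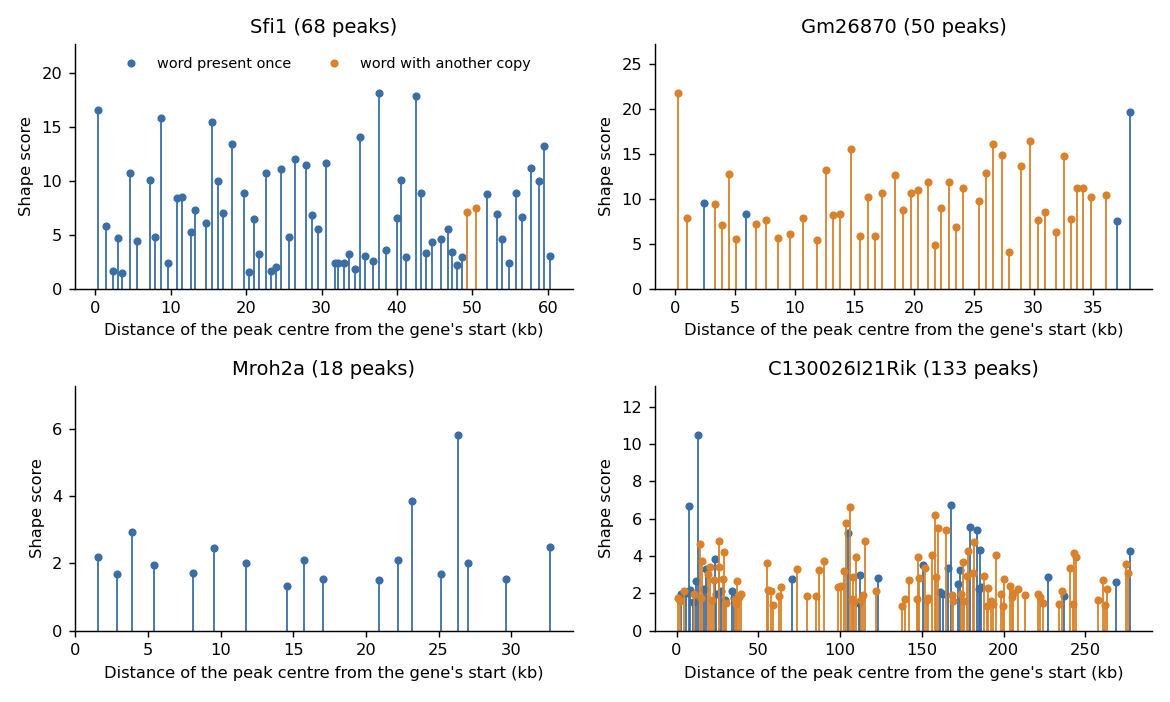
Shape score of each peak listed for Sfi1, Gm26870, Mroh2a and C130026I21Rik against the distance of its centre from the gene's start in kb, coloured by whether the centre word is present once. Strong peaks run along the whole of Sfi1 (51 of 68 with a p of 0.001 or less) and Gm26870 (50 of 50), while Mroh2a has 2 of 18.

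Per 100 kb, Gm26870 led with 131 peaks and Sfi1 followed with 110. Sp110, a nuclear body protein of macrophages, had 100.4 (22 peaks, 13 with a p of 0.001 or less, 68.2% with a repeated centre). Gm3468 was listed with 70.2 (15 peaks) and Tcte2, a testis-expressed gene of the t-complex, with 52.7 (26 peaks). The annotated span of each holds only 1 peak, so these densities rest on the list's own gene model. The pseudogenes 6820431F20Rik (57.4), 2610005L07Rik (51.2) and Tmem181b-ps (49.1) had only 3 of 20, 1 of 20 and 3 of 14 peaks with an unrepeated centre. Mroh2a, which encodes a HEAT repeat protein, had 50.99 per 100 kb (18 peaks), and all 18 had a centre present once. Its scores ran from 1.33 to 5.81, with 2 peaks at a p of 0.001 or less. C130026I21Rik had 47.9.

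With unrepeated centres only, genes of other kinds came forward; they were chosen after their values were seen. Lmtk3, a membrane kinase of neurons, had 6 peaks in 20.4 kb (29.4 per 100 kb). Pafah2, a platelet-activating factor acetylhydrolase, had 9 in 31.1 kb, and Card10, a scaffold of NF-kappaB signalling, had 8 such peaks of 9. Glp1r, the receptor of the incretin GLP-1, had 11 in 39.0 kb with scores of 1.37 to 2.74. Rasal1, a Ras GTPase-activating protein, had 8 in 30.8 kb, and Celsr2, a cadherin of planar cell polarity, had 6 in 24.7 kb. None of the peaks of these 6 genes had a p of 0.001 or less, and only 3, all in Glp1r, were found in the F1-HDM list.

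Among gene peaks with an unrepeated centre and under 1% of their 12-base words shared with the array, the highest scores were in Aida, Bcar3 and Asmt. Aida, an axin-interacting protein, had a peak in an intron, 1831 bp from a start, with a score of 26.8, 6 CpGs and 11.1% of its bases marked as repeat. The same place scored 19.9 in the F1-HDM list and 17.3 in the hMeDIP-seq list. Where F0-Saline_F1-HDM was searched against the same control library it scored 24.5, and since the control is shared, peaks common to these lists were not counted. Bcar3, an adaptor of integrin signalling, scored 25.4 in an intron with 1 CpG, and had no hMeDIP-seq peak there. Asmt, the last enzyme of melatonin synthesis, scored 21.8 on the X chromosome, 753 bp from a start.

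Peaks were found again in a comparison that shares no library with this one, and the more so the stronger they were. In the F1-HDM list, 12309 peaks (13.9%, 13.7 to 14.1) were found with at least 1 bp in common. The share was 90.5% (89.5 to 91.5) at a p of 0.001 or less, 98.7% at 1e-06 or less and 99.7% at 1e-10 or less. Conversely, 92.3% of the 13338 peaks of the F1-HDM list were found here. Both lists compare HDM dams with saline dams, but these places cannot be told apart from places that give a peak in any library, since neither list has a replicate. Where F0-Saline_F1-HDM, from saline dams, was searched against the same control library as here, the strongest of these places scored nearly the same. The first was 43.97 here and 44.1 there, the next 43.3 in both, and that in Gm10801 40.8 and 40.7. What part HDM in the dams had in these scores was not tested. In the hMeDIP-seq list of the same groups 6943 peaks (7.85%, 7.67 to 8.03) were found, with 29.3% at a p of 0.001 or less and 47.0% at 1e-10 or less. Of the 38333 peaks of that list, 6897 (18.0%) were found here.

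The peaks with and without a partner differed in place and sequence. Those found only in the hMeDIP-seq list (5235) had a median of 4.09 CpGs per 100 bp and lay in exons in 29.2%, against 0.531 CpGs and 2.24% in exons for those found only in the F1-HDM list (10601). Those found in both (1708) had a median score of 3.11 and 65.3% repeated centres. The 70894 peaks found in neither (80.2%) had a median score of 1.48, and their highest score was 6.46. This was in an intron of Ercc4, a subunit of the nucleotide excision repair endonuclease, where all 7 peaks had a repeated centre and a p of 1e-06 or less. The 20 highest-scored peaks of the list were all found in the F1-HDM list, and 13 of them in hMeDIP-seq.

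Gene families differed widely in the share of their members with a peak, and much of this went with length. Against 35.2% of all genes, genes of chemoreceptors and small RNAs held few: 48 of 866 olfactory receptor genes (5.54%, 4.11 to 7.28), 4 of 252 type 1 vomeronasal receptors (1.59%) and 15 of 650 miRNA genes (2.31%). The miRNA genes had a median span of 0.082 kb, and of all genes under 1 kb 3.05% held a peak. Olfactory and type 1 vomeronasal receptors had median spans of 5.79 and 1.24 kb, and of all genes of 1 to 10 kb 19.5% held a peak. By annotated span in place of the list's gene columns, the olfactory receptor share was 119 of 866 (13.7%). That of type 1 vomeronasal receptors was 23 of 252 (9.13%), and both were still below all genes. The olfactory receptor Olfr1331 had the highest score of its family at 2.38, and Vmn1r139 that of the type 1 vomeronasal receptors, also at 2.38. Type 2 vomeronasal receptors held peaks in 37 of 186 (19.9%, or 10.2% with unrepeated centres only), 69.4% of these peaks with a repeated centre, led by Vmn2r35 (15 peaks, all repeated, highest score 9.19) and Vmn2r13 (7.58). Igk segments held a peak in 1 of 90, and 5S rRNA genes in 1 of 147. Hist genes held 0 of 18 and trace amine receptors 0 of 9, where the interval reaches 18.5% and 33.6%. Igk segments, 5S rRNA genes and Hist genes had median spans under 1 kb, where few genes of any kind held a peak.

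Long genes of ion channels, adhesion and cilia held peaks in most members, as did long genes of any kind. Over all genes, 74.2% of those of 30 to 100 kb held a peak, 87.7% of those of 100 to 300 kb and 91.2% of longer ones. Median spans were 30.8 kb in the potassium channels, 114 kb in the collagens, 159 kb in the calcium channels, 239 kb in the axonemal dyneins and 641 kb in the contactins. All 15 axonemal dynein heavy chains, the motors of motile cilia, had a peak, with 6.14 peak centres per 100 kb of their spans. Dnah5 led with a score of 3.70, then Dnah6 with 3.23 and Dnah8 with 2.98 (35 peaks). Voltage-gated calcium channels had a peak in 12 of 13 (4.55 per 100 kb; Cacna1d 25 peaks, highest score 2.73), and potassium channels in 59 of 80 (3.65; Kcnq5 5.60). Collagens had one in 37 of 45 (4.25 per 100 kb), with a high score in an intron of Col4a6 on the X, a basement membrane chain (8.66). Contactins had peaks in 10 of 11 but only 1.41 per 100 kb over their very long spans. Solute carriers had peaks in 247 of 357 (69.2%, 4.39 per 100 kb), and the zinc finger Zfp genes in 150 of 343 (43.7%, 3.91 per 100 kb). Zfp473 had the highest score of these (9.53, repeated centre), and Zfp949 scored 4.23 in an exon 21 bp from a start.

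Some families had more peak centres per length than the 4.10 per 100 kb over all spans. Density fell with gene length, and keratin-associated proteins, beta protocadherins and keratins had median spans of 0.923, 3.72 and 6.55 kb, so this is not matched for length. Keratin-associated proteins of hair had 15.9 peak centres per 100 kb, from 6 centres in 37.7 kb, though only 6 of 36 held a peak. Beta protocadherins, the clustered adhesion genes without introns in their variable exons, had 13.5 per 100 kb (12 centres in 89.2 kb) with 11 of 21 members, led by Pcdhb15 (score 2.08, in an exon). Keratins had 8.82 per 100 kb (23 of 50), with Krt20 at 2.27. Wnt ligands had 7.41 per 100 kb (11 of 18), with Wnt7b at 3.93, Wnt5b at 2.91 and Wnt3a at 2.22, the last in an exon with 33 CpGs. None of the peaks of keratins (33), keratin-associated proteins (6) or beta protocadherins (12) had a p of 0.001 or less. Over the whole list 3.58% had, a share that so few peaks can miss.

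**Figure D5:**
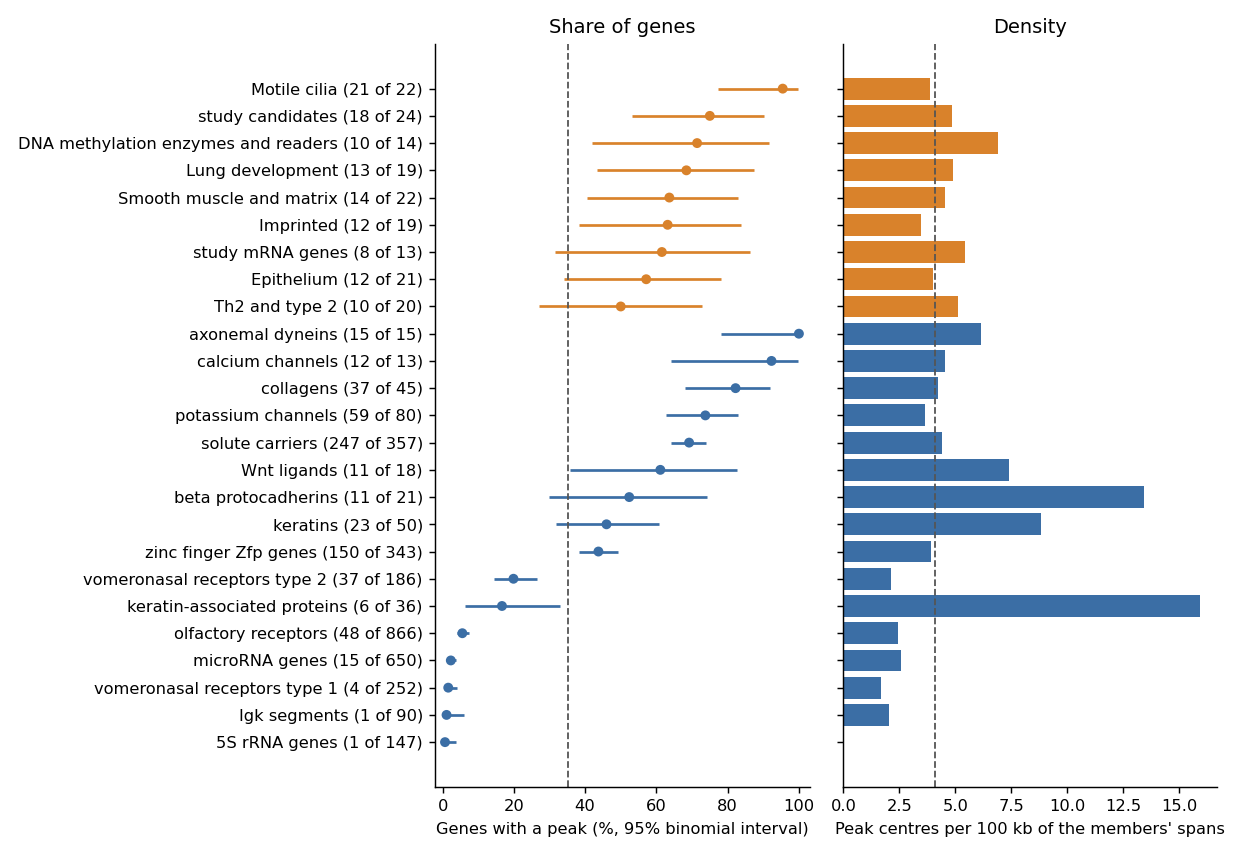
Left, share of genes with a peak in selected gene families (blue) and gene lists (orange), with 95% binomial intervals. The dashed line is 35.2%, the share over all genes, which is not matched for length. Right, peak centres per 100 kb of the members' summed spans; the dashed line is 4.10. Motile cilia genes reach 95.5% on the left but 3.86 on the right, below the line.

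In genes of allergic inflammation the peaks were about as weak as in all genes. Over all genes with a peak, the highest score of a gene had a median of 1.66 and 3.96% of the genes had a p of 0.001 or less. This, and the 35.2% of all genes that held a peak, is the background for each list below. That 35.2% takes in many short genes. Of genes of 10 to 30 kb 52.5% held a peak, and of those of 30 to 100 kb 74.2%. The lists had median spans of 9.76 kb (epithelium) to 190 kb (motile cilia), so their shares are not matched for length. Type 2 immunity is driven in the airway by Il4, Il5 and Il13 from T helper 2 cells and innate lymphoid cells, under the transcription factors Gata3 and Stat6. Of 20 such genes with a known span, 10 held a peak, with a median highest score of 1.59 and none with a p of 0.001 or less, and none of their highest-scored peaks was found in the F1-HDM list, where 16.4% of all genes with a peak had theirs. The highest score was 2.51 in an exon of Gata3, with 18 CpGs, where hMeDIP-seq scored 1.65. Across the neighbouring cytokine genes on chromosome 11, Rad50, which holds the locus control region, scored 2.20, Il5 2.02, Il4 1.64 and Il13 1.44, with 6 peaks of 1.35 to 2.20 in all. Il25, an epithelial cytokine that starts type 2 responses, also scored 1.64. Genes without a peak included Il33, an alarmin, its receptor Il1rl1, and Il9.

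Epithelial, muscle and developmental genes gave values of the same size. Airway and alveolar epithelial genes held a peak in 12 of 21. Muc5b, the secreted airway mucin, was highest at 2.10, then Krt5, a basal cell keratin (2.01, no CpG), Epcam, an adhesion molecule (1.91, in an exon with 29 CpGs), and Spdef, a factor of goblet cells (1.87). Sftpc and Sftpd, surfactant proteins, Foxj1, the master factor of ciliated cells, and Nkx2-1, the lung lineage factor, held 0 peaks. Smooth muscle and matrix genes held a peak in 14 of 22, with Myh11, smooth muscle myosin, at 2.73, Mylk, the kinase of its light chain, at 2.67, Col4a1 at 2.34 and Myocd, the master coactivator of smooth muscle genes, at 2.34. Acta2 held none. In lung development genes (13 of 19 with a peak), Wnt7b was the only one with a p of 0.001 or less; Hhip, an antagonist of hedgehog ligands, scored 2.41 and Fgf10, the ligand of Fgfr2, 2.29. Motile cilia genes held a peak in 21 of 22, all but Ccdc39. Of the 21 highest-scored peaks 10 were found in the F1-HDM list, against 16.4% of all genes with a peak. Their median span was 190 kb, and genes of 100 to 300 kb held a median of 4 peaks. The highest score is thus taken from more peaks than in short genes. By length, the density of the motile cilia genes, 3.86 per 100 kb, was below that of all genes. Spag17, a protein of the central pair of cilia, was far above the others at 27.5, in a partly satellite-like intron (16.4% of its words matched).

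The enzymes that write, read and remove 5mC held peaks in 10 of 14 genes (71.4%, against 35.2% of all genes). Their median span was 29.98 kb, and genes of 10 to 30 kb held a peak in 52.5% and those of 30 to 100 kb in 74.2%. The highest scores of these enzymes had a median of 1.88. None had a p of 0.001 or less, where 3.96% of all genes with a peak did. Dnmt3a, a de novo methyltransferase, had a peak in an exon 50 bp from a start with 13 CpGs and a score of 1.98. Tet2, which oxidizes 5mC, scored 2.40 with 1 CpG, Dnmt3l, a cofactor of de novo methylation, 2.18, and Uhrf1, which recruits Dnmt1 to new DNA, 1.98. Dnmt1 itself scored 1.70. Imprinted genes held a peak in 12 of 19 (63.2%, median span 26.5 kb, median highest score 1.67). Their scores reached 1.997 in Nespas, an antisense RNA of the Gnas locus. Plagl1, a zinc finger factor, had 1.98 and Kcnq1ot1 1.83. H19, a maternally expressed RNA, had 1.78 at 18 bp from a start, in an exon with 17 CpGs. Igf2, Mest and Impact held 0 peaks.

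Of the 24 candidate genes named by the study that have a known span, 18 held a peak and the highest-scored peak of 11 had a p of 0.001 or less, against 3.96% of all genes with a peak, but the study chose this list on libraries of this series, so it is not independent evidence. Beyond Aida, Asmt and Spag17, Eef2, the translation elongation factor, scored 11.7 in an exon with 10 CpGs, and hMeDIP-seq 13.2 at the same place. Muc19, a gel-forming mucin, scored 10.6 in an exon, Luzp2, a leucine zipper protein, 9.61, and Col23a1, a transmembrane collagen, 8.68 without a CpG. Kcnh1, a potassium channel, scored 7.63 at a repeated centre, and Lars2, the mitochondrial leucyl-tRNA synthetase, 7.52 in an exon with 18 CpGs. Nox3, an NADPH oxidase, scored 3.43. Acox2, Dpy19l1, Foxi1, Mrs2, Oasl2, Tmem125 and Ugt8a had scores of 1.34 to 1.97. The last list holds genes measured as mRNA in these mice. Of these, 8 of 13 held a peak (61.5%, against 35.2% of all genes). Their median span was 38.3 kb, and genes of 30 to 100 kb held a peak in 74.2%. The median highest score was 1.84 and none had a p of 0.001 or less (3.96% of all genes with a peak). Ccnd1, Pcna, Col3a1, Acta2 and Camk2d held 0 peaks.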

How the data were processed

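MeDIP-seq and hMeDIP-seq libraries were made by the authors from pooled F1 lung DNA (fragments of about 200 bp, 51-bp paired-end reads). Bowtie 0.12.9, FastQC and CASAVA 1.8.0 stand in the submitters' processing notes, and the study names CLC Genomics Workbench for the peaks. The deposited list gives, on mm10, each peak's position, length, shape score, p-value and closest genes. The score and the p-value are the authors' own as deposited; the authors state a false discovery rate of 0.001, while the listed p reaches up to 0.1. How reads with several placements were treated is not given in the sources used here. Reads, depth and fold changes were not analysed here.

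A peak counted for a gene at a listed distance of 0. Spans, exons and 132696 transcription starts came from GENCODE vM21, spans of named genes also from RefSeq, and sequence from GRCm38. Of 36297 gene symbols in the 6 lists, 33697 had a known span. Families were formed by symbol. The tools were matplotlib 3.10.9, numba 0.67.0, scipy 1.17.1, pandas 2.3.3 and numpy 2.4.6 under Python 3.11.15. Functions were tested on simulated data and equalled exhaustive search in 760 of 760 word counts, 600 of 600 spans and 400 of 400 nearest starts.

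Named are the 10 genes with most peaks, the 10 with most per 100 kb (at least 5 peaks and 20 kb), those at the 10 highest scores and 5 greatest lengths, up to 4 members of each family or list by p, and the study's own genes. Not all members named by the rule are printed, and other genes were chosen after their values were seen. The members and lists were chosen with earlier results of these data known.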

Additional observations from a re-analysis of the deposited data

How the results depend on the processing

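No paired analysis was possible because each group has 1 pooled library per assay, and no replicate could be left out. Most counts depend on the threshold of p. At a p of 0.001 or less, 1e-06 or less and 1e-10 or less, the peaks listed fell from 88438 to 3162, 1302 and 715, and the genes overlapped from 12480 to 523, 230 and 143. Genes by annotated span (12812) or by a start within 2 kb of the peak centre (10387) were close to this.

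The share of peaks in a gene was 42.8%, then 30.5% at 0.001 and 33.0% at 1e-06, 54.8% by annotated span and 46.8% for peaks with a centre word present once. The share within 2 kb of a start was 13.96%, then 12.6% and 14.9% at these thresholds, 7.91% within 1 kb, 28.4% within 5 kb and 14.996% for unrepeated centres. In the F1-HDM list the share found was 13.9%, then 90.5% at 0.001, 98.7% at 1e-06 and 10.01% for unrepeated centres, and it held with an overlap of 50% of the shorter peak (13.9%). In the hMeDIP-seq list it was 29.3%, 39.1% and 5.34% in the same order, and 7.25% with the 50% overlap.

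Peaks per Mb on the autosomes were 35.8, then 34.8 by whole length, 1.10 at a p of 0.001 or less and 29.2 for unrepeated centres. On the X they were 1.61 at 0.001 and 1.64 for unrepeated centres, and on the Y 2.70 and 0.885. The last is per Mb of all sequenced bases, although 93.2% of genome words on the Y had another copy. The order of X and autosomes turns at 0.001 with repeated centres included but not with unrepeated centres alone (0.153 on the X, 0.305 on the autosomes). The cause was not tested. Of 47 families, 24 had a larger share of members with a peak than all genes, 15 at 0.001 and 6 at 1e-06, and 18 had a higher density. These comparisons were not matched for length. Of the 137 lung and allergy genes with a known span, 92 held a peak, 4 at 0.001 and 1 at 1e-06. Over all genes of any length 35.2% held a peak, and 3.96% of the genes with a peak had a p of 0.001 or less. Shares of single families moved in 8 of 47 by annotated span (olfactory receptors to 13.7%, type 1 vomeronasal receptors to 9.13%, Zfp genes to 50.4%, Gm genes to 14.3%, Rik genes to 41.8%, and alpha and gamma protocadherins and contactins to 100%), in 43 at each p threshold and in 3 with unrepeated centres, and those of the 9 gene lists moved at the p thresholds alone. Unrepeated centres, and all alternatives for these lists, were chosen after seeing the data. The depth behind a peak is unknown, which limits every value here.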

Other observations

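Strong peaks also ran together in a few other genes, which were chosen after their values were seen. In Ercc4, all 7 peaks had a p of 1e-06 or less, with scores of 5.07 to 14.3. Scd3, a stearoyl-CoA desaturase, had 9 peaks, 7 of them with a p of 1e-06 or less, and 1 centre of the 9 was unrepeated. Gm7120 had 15 peaks, 13 with a p of 0.001 or less. Erdr1, a gene at the end of the sex chromosomes, had 26, of which 17 had a p of 0.001 or less. It is also a candidate of the study and was left out of that list above because it had no known span.

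Among long genes with many weak peaks, Foxp1, a forkhead factor of lung epithelium and lymphocytes, had 40 peaks and a highest score of 2.84. Ptprm, a receptor tyrosine phosphatase of cell contacts, had 44 with a highest score of 4.30, and Foxn3 had 25. Gabra3, a GABA receptor subunit gene on the X chromosome, had 8 peaks with a highest score of 9.08 at a repeated centre. In the miRNA genes the highest score was 2.70, at Mir6236, where the hMeDIP-seq score was 5.27.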
